A study of Mus musculus with 5 samples.

Results

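T and NK lymphocytes (the members) were chosen by measured values among single spinal cord cells, the RNA counts of Cd3d, Cd3e, Cd3g, Nkg7 and Cd2. A cell barcode was kept if it held at least 200 genes and at most 10% mitochondrial molecules, and it was a member if it held at least 2 unique molecular identifiers (UMIs, 1 per captured RNA molecule) from at least 2 of those 5 genes. A barcode found in more than 1 of the tables of Healthy 1, Healthy 2 and EAE 1 was used only where its UMI total was highest. The members were 77 of 4678 kept cells, and all 77 lay among the 3151 kept cells of the mice with experimental autoimmune encephalomyelitis (EAE), an autoimmune inflammation of the central nervous system. Because the 5 genes chose the members, and the group was named with its share in EAE known, the levels of these genes and all contrasts between members and other cells are given as descriptions, with no test.

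The study compared spinal cord cells from mice with EAE (libraries EAE 1 and EAE 2) and from healthy mice (Healthy 1, Healthy 2 and Healthy 3). All mice in both groups carried Col1a1GFP, a green fluorescent reporter of the collagen gene Col1a1, on a C57/BL6 background. Single GFP-positive cells were sorted by flow cytometry before 10x Genomics v2 libraries were made, so lymphocytes were not the target of the sort and their share in the whole cord was not measured. The labels used here give no age, no day of disease, no immunisation protocol and nothing on whether each library is a mouse of its own, so the spread between libraries may be technical. The number of EAE 1 follows the order of the samples.

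CD3 chains carry the signal of the T cell antigen receptor, and CD2 is an adhesion receptor of T and NK cells. NKG7 is a granule protein of cytotoxic lymphocytes. CD4 T cells read antigen on class II molecules and CD8 T cells on class I molecules, whereas NK cells kill without an antigen receptor. In EAE, T cells directed against myelin enter the cord and recruit other leukocytes, and stromal cells of the meninges and perivascular spaces make chemokines that bind lymphocyte receptors.

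Cd3g, Cd3d and Cd3e lie side by side on chromosome 9 of GRCm38 in the GENCODE annotation, the first and the last on the minus strand and Cd3d on the plus strand. Cd3g spans 44969572 to 44980431, Cd3d 44981786 to 44987339 and Cd3e 44998740 to 45009627, while Nkg7 spans 43437073 to 43438249 on the plus strand of chromosome 7 and Cd2 spans 101275899 to 101287939 on the minus strand of chromosome 3. The starts of Cd3g and Cd3d are 1355 bases apart and face away from each other. The promoters of the 3 Cd3 genes are shown because their RNA marked most members together. The windows are from RefSeq (GRCm38.p6), 250 bases before to 50 bases after each start, at chr9:44980382-44980681 for Cd3g, chr9:44981536-44981835 for Cd3d and chr9:45009562-45009861 for Cd3e, each on the strand of its gene, and capitals mark AGGAA on either strand (TTCCT on the strand shown), the core of motifs of ETS family factors.
Cd3g: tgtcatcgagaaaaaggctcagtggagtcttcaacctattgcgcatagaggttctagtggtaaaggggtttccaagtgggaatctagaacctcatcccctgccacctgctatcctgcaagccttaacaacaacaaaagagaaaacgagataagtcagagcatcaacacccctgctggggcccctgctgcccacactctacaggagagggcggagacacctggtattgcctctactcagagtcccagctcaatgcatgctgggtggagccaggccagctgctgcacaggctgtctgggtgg
Cd3d: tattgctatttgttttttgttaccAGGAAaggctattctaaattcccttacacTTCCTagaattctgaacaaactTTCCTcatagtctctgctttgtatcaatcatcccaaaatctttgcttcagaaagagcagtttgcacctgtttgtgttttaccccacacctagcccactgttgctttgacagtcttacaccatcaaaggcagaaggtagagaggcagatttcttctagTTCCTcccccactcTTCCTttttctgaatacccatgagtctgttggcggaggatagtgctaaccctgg
Cd3e: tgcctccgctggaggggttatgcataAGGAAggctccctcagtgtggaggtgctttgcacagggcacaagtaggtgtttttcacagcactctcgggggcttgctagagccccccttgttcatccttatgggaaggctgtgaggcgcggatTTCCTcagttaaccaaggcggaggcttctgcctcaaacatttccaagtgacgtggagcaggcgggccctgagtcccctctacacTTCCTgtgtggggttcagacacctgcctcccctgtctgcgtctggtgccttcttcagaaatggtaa
AGGAA was found 0 times in the Cd3g window, 5 times in that of Cd3d and 3 times in that of Cd3e. It was present in 66.7% of all 32851 RefSeq promoter windows of this length. TGTGGT, a core of RUNX motifs, was found on neither strand of the 3 windows and in 16.8% of all windows. A match describes the letters only.

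The deposited tables held 10775024 and 7317084 UMIs in EAE 1 and EAE 2 and 1588693 to 1990869 in the Healthy libraries. EAE 1 shared many cell barcodes with Healthy 1 and Healthy 2. Of the 56 members of EAE 1, 10 (17.9%) had a barcode that was also in the Healthy 1 table and 7 (12.5%) one that was also in the Healthy 2 table, against 1227 (66.1%) and 675 (36.3%) of the 1857 other cells of EAE 1. No member of EAE 2 shared a barcode with any other table. The 10 shared barcodes carried 5 UMIs of the 5 genes in all in the Healthy 1 table, at a median of 514 UMIs per barcode. Col1a1 itself, the gene of the sorted reporter, was detected in 14 of 56 members of EAE 1 (25.0%) and 5 of 21 members of EAE 2 (23.8%), against 91.6% and 96.0% of the other cells.

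Lymphocytes made up 2.93% of the kept cells of EAE 1 (56 of 1913, exact 95% interval 2.22 to 3.78%) and 1.70% of those of EAE 2 (21 of 1238, 1.05 to 2.58%). None were found among 724 cells of Healthy 1, 429 of Healthy 2 and 374 of Healthy 3, which allows shares of up to 0.414%, 0.699% and 0.802% (3 cells of the total). The other cells of EAE 1 and EAE 2 had medians of 4592 and 5065 UMIs and the cells of Healthy 1, 2 and 3 medians of 1213, 3195 and 4273 UMIs, and a gate of 2 UMIs finds fewer cells at lower depth, so these limits hold for cells that pass the gate and not for lymphocytes as such. The mean share was 2.31% ± 0.870 in the EAE libraries (SD, n = 2) and 0% ± 0 in the Healthy libraries (SD, n = 3), and the groups did not overlap. Among the libraries whose labels carry no lane the difference was 2.93 points (EAE 1 against Healthy 1 and 2), and among those whose labels carry a lane it was 1.70 points (EAE 2 against Healthy 3). The kept cells held 890 and 286 UMIs of the 5 genes in EAE 1 and EAE 2, against 0, 0 and 2 in Healthy 1, 2 and 3, the last both in 1 cell. With every barcode used in each table that lists it, the share in EAE 1 was 2.92%. Intervals and limits for shares and UMI sums cover counting error only.

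**Figure D1:**
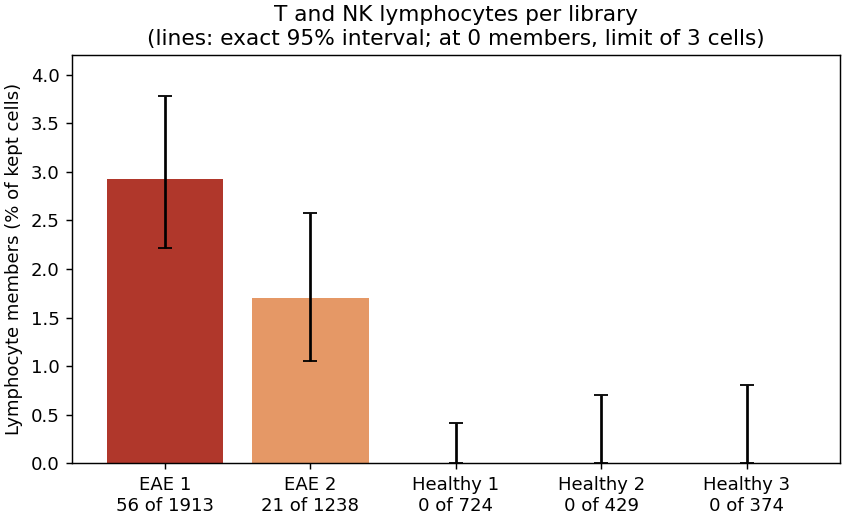
Members as a percentage of kept cells in each library (vertical axis), with exact 95% intervals for the EAE libraries and the limit of 3 cells for the Healthy libraries. EAE 1 stands at 2.93%, EAE 2 at 1.70% and the 3 Healthy libraries at 0.

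Members held fewer UMIs than the other cells of the same library. The median was 3738.5 UMIs (1672 to 24788) in members of EAE 1 and 4592 in its other cells, and 2343 (1311 to 9429) in members of EAE 2 and 5065 in its other cells. Members expressed a median of 1533 genes in EAE 1 and 966 in EAE 2. Levels are therefore given as counts per 1000000 UMIs (CPM) over the summed UMIs of the members of a library, and shares of cells with a UMI are given also after thinning each cell to 1300 UMIs for the main differences between the libraries. In these libraries fewer cells with a transcript and less RNA per cell cannot be told apart in a summed level.

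The 5 genes of the rule were seen at a median of 12 UMIs per member in both libraries (2 to 43 in EAE 1, 3 to 40 in EAE 2). At the limit of the rule, 5 members of EAE 1 and none of EAE 2 held exactly 2 such UMIs, while 25 and 8 cells with 1 such UMI and 10 and 1 cells with several UMIs of a single gene stayed outside. Cd3g was detected in 45 of 56 and 19 of 21 members, at 555 CPM in EAE 1 and 1128 CPM in EAE 2. Cd3d was detected in 44 and 19 members, at 569 and 971 CPM, and Cd3e in 29 and 14 members, at 173 and 611 CPM. Cd3d and Cd3g occurred in the same cell in 40 of 56 and 17 of 21 members. Nkg7 was detected in 41 of 56 members of EAE 1 (1250 CPM) and 10 of 21 of EAE 2 (1049 CPM), and Cd2 in 45 (407 CPM) and 13 (548 CPM). All 5 genes were present in 15 of 56 and 4 of 21 members. In the other cells each of the 5 was at 4.58 CPM or less and was seen in at most 0.700% of cells of EAE 1 and 0.246% of cells of EAE 2.

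RNA of the antigen receptor itself was counted in EAE 1, whose table lists the receptor constant genes. Trac was detected in 39 of 56 members (357 CPM, 37.9% of members after thinning), Trbc1 in 26 (346 CPM) and Trbc2 in 45 (814 CPM). At least 1 of these alpha and beta chain genes was seen in 50 of 56 members, among them 47 of the 50 members with a Cd3 UMI. Trdc, of the delta chain, was seen in 3 members at 25.2 CPM. In the other cells of EAE 1 these genes stood at 2.04 CPM (Trac), 1.53 CPM (Trbc1), 2.75 CPM (Trbc2) and 0.611 CPM (Trdc). The receptor constant genes of EAE 2 were not analysed here. The tables of EAE 1, Healthy 1 and Healthy 2 list 28692 genes and those of EAE 2 and Healthy 3 list 27998, so the EAE tables may rest on different annotations, and what this does to a fold between EAE 1 and EAE 2 was not tested. Cd247, the zeta chain, was detected in 16 of 56 members of EAE 1 (75.7 CPM) and 8 of 21 of EAE 2 (157 CPM), against 0.102 and 0 CPM in the other cells.

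Genes of T cell receptor signalling and of the leukocyte surface were far higher in members than in other cells of both libraries. A gene was counted as higher when its level, with 10 CPM added to both sides, was at least 4-fold that in the other cells of the same library in both EAE libraries, among genes with at least 3 UMIs in the members of each library. By this rule 16 of 17 genes of the signalling list were higher, beside 179 of 3345 genes in all (5.35%), while 49 genes (1.46%) were lower, and the lower of the 2 libraries' folds had a median of 18.8 over the list and 1.02 over all 3345 genes. Because the rule of membership set this contrast, nothing is read from the difference. The same median was 9.93 for the NK list, 9.64 for the cytotoxic list, 4.66 for the type 1 list, 2.13 for the type 17 list, 9.12 for the regulatory T cell list and 0.149 for the fibroblast markers, of which 6 of 9 were lower in members. Genes that passed the minimum of 3 UMIs only through their level in members had to differ. The same limit holds for the counts of genes higher in members that are given for the lists below.

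Ptprc, which encodes the leukocyte common antigen CD45, was detected in 45 of 56 members of EAE 1 (630 CPM) and 17 of 21 of EAE 2 (548 CPM), against 14.2 and 1.11 CPM in the other cells. Ptprcap, the protein bound to CD45, was at 566 and 752 CPM, and Laptm5, a lysosomal protein of blood cells that limits antigen receptor signalling, at 486 and 689 CPM. Coro1a, an actin regulator needed for T cell survival and migration, stood at 955 and 908 CPM. Cd52, a small surface glycoprotein of lymphocytes, was detected in 54 of 56 and 20 of 21 members, at 2093 and 2600 CPM, against 81.8 and 14.3 CPM in the other cells. These 5 genes were detected in most members of both libraries. Not all of them set members apart from other leukocytes. In the 92 myeloid-gated cells of EAE 1 (at least 2 UMIs of at least 2 of 6 myeloid genes) Cd52 stood at 1829 CPM, Coro1a at 685 CPM and Laptm5 at 407 CPM. Among the 18 such cells of EAE 2 these 3 genes stood at 441, 50.1 and 371 CPM.

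Lck, the kinase that starts receptor signalling, was at 263 CPM in EAE 1 and 251 CPM in EAE 2. Lat, the adaptor downstream of the receptor, was at 213 CPM in EAE 1 (exact 95% Poisson interval 162 to 274) and 814 CPM in EAE 2 (608 to 1068). The costimulatory receptor Cd28 was detected in 32 of 56 members (263 CPM) and 15 of 21 members (454 CPM), against 0.713 and 0.278 CPM in the other cells. Some members also held RNA of other cells, and are called fibroblast-rich where 10 fibroblast markers outnumbered the 5 genes of the rule and class II-rich where 4 class II genes held at least 10 UMIs. Without both kinds of member, Lat was at 418 CPM in EAE 1 and 982 CPM in EAE 2. Lck was then at 457 and 293 CPM and Cd28 at 477 and 564 CPM. Thy1 was detected in 36 of 56 and 18 of 21 members, at 342 and 783 CPM, but also in 21.3% and 34.5% of the other cells, where it stood at 85.2 and 162 CPM.

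**Figure D2:**
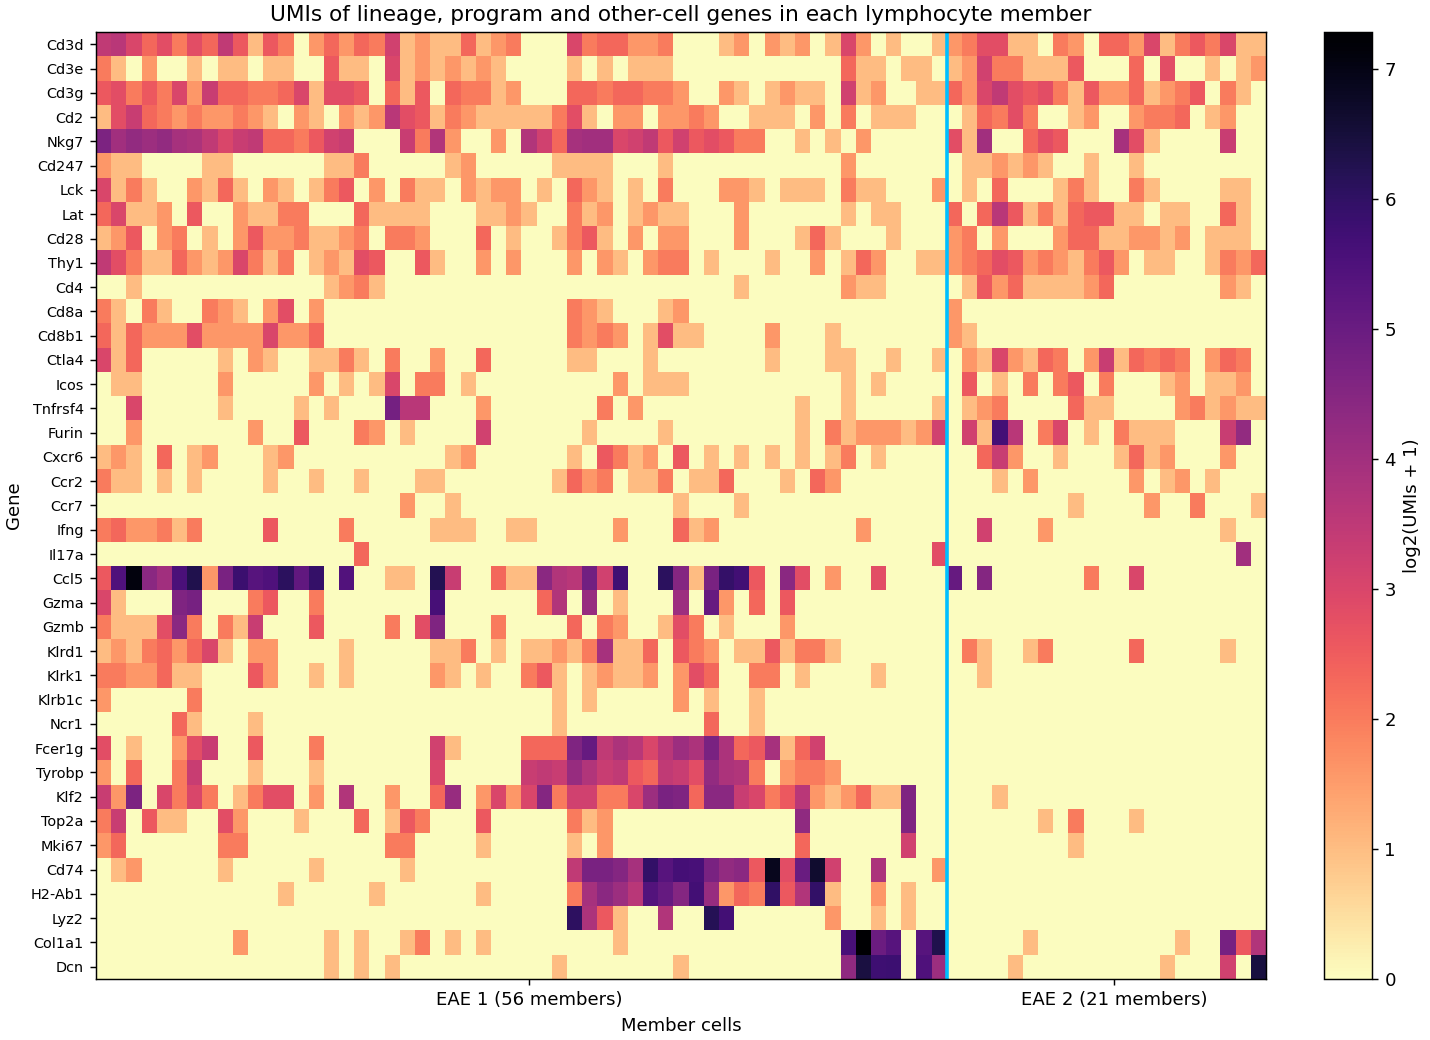
UMIs, as log2(UMIs + 1), of 39 genes (rows) in each of the 56 members of EAE 1 and 21 members of EAE 2 (columns, separated by a line). Within a library, cells run from those with Cd8a or Cd8b1 through those with Cd4, those with neither and those with no Cd3, to class II-rich and fibroblast-rich members at the right end. Granzyme and Tyrobp UMIs lie in EAE 1 alone, Cd8b1 UMIs in 25 columns of EAE 1 and 2 of EAE 2, and Cd4 and Ctla4 UMIs lie in most columns of EAE 2.

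Coreceptor RNA differed between the libraries, with Cd8 mostly in EAE 1 and Cd4 mostly in EAE 2. Cd8a or Cd8b1 without Cd4 was found in 24 of 56 members of EAE 1 (42.9%, exact 95% interval 29.7 to 56.8%) and 1 of 21 of EAE 2 (4.76%, 0.120 to 23.8%). Cd4 without either Cd8 gene was found in 8 of 56 members of EAE 1 (14.3%, 6.38 to 26.2%) and 11 of 21 of EAE 2 (52.4%, 29.8 to 74.3%). In each library 1 member had both, and 23 and 8 members had neither, which at these depths does not show that the coreceptor was not expressed. Cd8b1, the beta chain, was at 238 CPM (184 to 303) in EAE 1 and 47.0 CPM (9.69 to 137) in EAE 2, and Cd8a at 119 and 31.3 CPM. Cd4 was at 46.8 CPM (24.9 to 80.1) in EAE 1 and 392 CPM (253 to 578) in EAE 2. After thinning, 26.0% of members in EAE 1 and 6.51% in EAE 2 had Cd8b1, and 6.59% and 37.4% had Cd4. With 1 library on each side this compares EAE 1 with EAE 2 and has no replicate check.

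The split of coreceptors was also present among members poor in fibroblast and class II RNA. Without members rich in fibroblast or class II RNA, 14 of 31 members of EAE 1 and 1 of 18 of EAE 2 had Cd8 alone, and 4 of 31 and 9 of 18 had Cd4 alone. In these cells Cd8b1 was at 428 CPM in EAE 1 and 62.7 CPM in EAE 2, Cd8a at 233 and 41.8 CPM, and Cd4 at 77.8 and 460 CPM. Of lineage regulators, Bcl11b, needed for T cell identity, was at 141 CPM in EAE 1 and 125 CPM in EAE 2, and Runx3, a regulator of CD8 and cytotoxic cells, at 133 and 110 CPM. Both were at 2.85 CPM or less in the other cells. Of the lineage list 5 of 7 genes that passed the minimum were higher in members of both libraries, beside 5.35% of all genes.

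Members with Cd8 alone in EAE 1 carried cytotoxic RNA. Of these 24 cells, 22 had Ccl5, 16 Gzmb, 10 Gzma and 19 Klrd1. Of the 8 members with Cd4 alone in the same library, 3 had Ccl5, none a granzyme and 2 Klrd1. Nkg7, found in 23 of the 24 and 4 of the 8, is a gene of the rule, so its counts are given as a description. The median depth was 3863 UMIs in the members with Cd8 alone and 4236 in those with Cd4 alone. Of the 24 members with Cd8 alone 10 were class II-rich, and of the 8 with Cd4 alone 2 were class II-rich and 3 fibroblast-rich; the part of these cells in the difference was not tested.

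The granzymes Gzma and Gzmb, proteases of killer cell granules, were found in members of EAE 1 and not in members of EAE 2. Gzma or Gzmb was detected in 29 of 56 members of EAE 1 and in 0 of 21 of EAE 2. The 0 allows up to 14.3% of cells with a UMI, and at a median of 2343 UMIs it does not limit the share of cells that express the genes. Of those 29 members, 19 had a Cd8 UMI, 6 had Cd3 without Cd8 and 5 had no Cd3 (1 of the 5 also held Cd8b1). Gzma was at 753 CPM in EAE 1 and Gzmb at 396 CPM, at least 16.0-fold and 8.43-fold higher than in EAE 2, where 3 UMIs over all members correspond to 47.0 CPM. Without fibroblast-rich and class II-rich members they stood at 1284 and 856 CPM in EAE 1. In the other cells Gzma was at 6.93 CPM in EAE 1 and 0 CPM in EAE 2, and Gzmb at 1.32 and 8.05 CPM, the last from 58 UMIs in 2 cells.

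The chemokine Ccl5, a product of cytotoxic and memory T cells and of NK cells, was detected in 40 of 56 members of EAE 1 (4316 CPM) and 4 of 21 of EAE 2 (1002 CPM), against 74.2 and 70.7 CPM in the other cells. Ccl4, another chemokine of activated killer cells, was at 854 CPM in EAE 1, at least 18.2-fold higher than in EAE 2, where it was at 0. Without fibroblast-rich and class II-rich members Ccl4 was at 1177 and 0 CPM. Myeloid-gated cells held Ccl4 at 1369 CPM in EAE 1 and 1043 CPM in EAE 2, above the level over all members. They held Ccl5 at 444 and 1474 CPM, so Ccl4 was not particular to members, nor was Ccl5 in EAE 2. The granule proteoglycan Srgn (775 CPM in EAE 1, 1770 CPM in EAE 2) and the cathepsin Ctsw (187 and 345 CPM) were present in both libraries. Of the cytotoxic list 4 of 4 genes that passed the minimum in both libraries were higher in members, beside 5.35% of all genes. Of its 11 genes with at least 10 member UMIs, 6 were at least 4-fold higher in EAE 1 than in EAE 2. Over all genes with that number of UMIs, 493 of 4707 were higher in EAE 1 (10.5%) and 65 higher in EAE 2 (1.38%). The members held 277571 UMIs in EAE 1 and 63848 in EAE 2, where a gene at 0 UMIs could stand at up to 47.0 CPM. Gzmk, at 46.8 CPM in EAE 1 and 0 UMIs in EAE 2, was still among the 6. Counts of genes higher in EAE 1, here and for the lists below, may thus include genes not shown to be 4-fold higher.

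Receptors and adaptors of NK cells were likewise mostly of EAE 1. Klrd1 (CD94) was detected in 35 of 56 members of EAE 1 (321 CPM) and 6 of 21 of EAE 2 (204 CPM), and Klrk1 (NKG2D) in 29 (234 CPM) and 1 (15.7 CPM). Il2rb, the receptor chain shared by IL-2 and IL-15, was at 122 and 157 CPM, and at 224 and 209 CPM without fibroblast-rich and class II-rich members. The signalling adaptors Fcer1g and Tyrobp were detected in 29 and 27 of 56 members of EAE 1, at 948 and 695 CPM, and in 0 of 21 members of EAE 2. Both adaptors are shared with myeloid cells, and in the 92 myeloid-gated cells of EAE 1 (at least 2 UMIs of at least 2 of 6 myeloid genes) Fcer1g stood at 2025 CPM. Without fibroblast-rich and class II-rich members, Tyrobp was left in 10 of 31 members of EAE 1 and 0 of 18 of EAE 2. The NK receptor genes Klrb1c and Ncr1 were rare, with 11 UMIs in 7 members and 12 UMIs in 6 members of EAE 1 and none in EAE 2. Of the NK list 4 of 4 genes that passed the minimum in both libraries were higher in members (Klrd1, Cd7, Il2rb and Areg), beside 5.35% of all genes. Of its 14 genes with at least 10 UMIs, 9 were at least 4-fold higher in EAE 1 than in EAE 2, beside 10.5% of all genes. Among the 9, Klrb1c, Ncr1, Eomes and Klra8 were at 36.0 to 46.8 CPM in EAE 1, under the 47.0 CPM that 0 UMIs allow in EAE 2. By that limit Klra7 and Xcl1 were at least 1.15-fold and 2.84-fold higher. These genes are thus not shown to be 4-fold higher.

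Members with no UMI of Cd3d, Cd3e or Cd3g were found in EAE 1 alone, 6 of 56 against 0 of 21 in EAE 2 (up to 14.3%). All 6 had Tyrobp, Fcer1g, Klrk1, Klrd1, Ctla2b, Klf2 and Ccl5. Among the 50 members of EAE 1 with Cd3, Tyrobp was found in 21, Fcer1g in 23, Klrk1 in 23, Klrd1 in 29 and Ctla2b, which encodes a protease inhibitor related to cathepsin propeptides, in 8. Ncr1, Klrb1c and Klra8, receptors of NK cells, were each found in 3 of the 6, against 3, 4 and 2 of the 50. Of the 6, 4 had Gzma, 1 had Gzmb, 1 had Cd28 and 1 had Lat. The cells without Cd3 were shallower, at a median of 2281.5 UMIs against 3863 in those with Cd3, and 3 of the 6 were class II-rich.

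Genes found less often without Cd3 were Pabpc1, a poly(A)-binding protein, in 1 of the 6 members without Cd3 and 47 of the 50 members of EAE 1 with Cd3, Rac1 (0 of 6 and 39 of 50), Vamp8 (0 and 35), H2afy (0 and 35) and Thy1 (1 and 35). Trac was detected in 1 of 6 and 38 of 50, and Trbc2 in 1 of 6 and 44 of 50, whereas Trbc1 was detected in 3 of 6 and 23 of 50. The number of cells without Cd3 is small, and at a median of 2281.5 UMIs absence of a transcript was not detectable as such. By the rule itself, a member without Cd3 had to hold both Nkg7 and Cd2, and the genes named first here were picked for their difference between these cells, so the counts describe the 6 cells only.

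Of the type 1 program, Ifng, the interferon that defines it, was detected in 19 of 56 members of EAE 1 (151 CPM, 109 to 205) and 3 of 21 of EAE 2 (172 CPM, 86.0 to 308). In EAE 1 a Cd8 gene was present in 11 of the 19 and Cd4 in 3, while in EAE 2 Cd4 was present in all 3. The other cells held 0.407 and 0 CPM of Ifng. Its level was 302 CPM in EAE 1 and 209 CPM in EAE 2 without fibroblast-rich and class II-rich members. Tbx21, which encodes T-bet, was found in 8 members (32.4 CPM) and 3 members (62.6 CPM). The IL-18 receptor chains Il18r1 (64.8 and 94.0 CPM) and Il18rap (46.8 and 94.0 CPM) were at most at 0.509 CPM in the other cells. Tnf was detected in 3 members of EAE 1 (10.8 CPM) and 4 of EAE 2 (125 CPM). Of this list 5 of 7 genes were higher in members, beside 5.35% of all genes.

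Il17a, the cytokine of type 17 cells, was confined to 3 members, 2 in EAE 1 with 10 UMIs between them and 1 in EAE 2 with 15 UMIs. Cd4 was detected in 1 of those 2 cells and in the cell of EAE 2, and none of the 3 held Ifng. The cell of EAE 2 was fibroblast-rich, and without such members and class II-rich ones Il17a was at 38.9 CPM in EAE 1 and 0 in EAE 2. Csf2 (GM-CSF) had 10 UMIs in 4 members of EAE 1 and 1 UMI in EAE 2. Il17f, Il22, Il23r and Ccr6 had 0 UMIs in members of both libraries, which allows up to 10.8 CPM in EAE 1 and 47.0 CPM in EAE 2. Rora was detected in 23 members of EAE 1 (126 CPM) and 15 of EAE 2 (673 CPM), but the other cells held 106 and 209 CPM. Maf was at 148 and 345 CPM in members and at 204 and 286 CPM in the other cells. Of the type 17 list 2 of 6 genes were higher in members, beside 5.35% of all genes. These 2 were Il17a, which rests on those 3 cells, and Ccr2, which in EAE 1 was higher in myeloid-gated cells (328 CPM) than in members (144 CPM). Ramp1, a coreceptor for the neuropeptide CGRP, was at 104 and 329 CPM, against 27.0 and 15.3 CPM in the other cells.

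Ctla4, the checkpoint receptor of activated and regulatory T cells, was detected in 21 of 56 members of EAE 1 and 17 of 21 of EAE 2. Its level was 141 CPM (99.9 to 192) in EAE 1 and 861 CPM (649 to 1121) in EAE 2, and its thinned share was 17.5% and 66.9%. Without fibroblast-rich and class II-rich members it was at 302 CPM in EAE 1 and 1003 CPM in EAE 2, in 13 of 31 and 15 of 18 members, and the ratio of EAE 1 to EAE 2 moved to 0.307, against 0.173 over all members. Cd4 was present in 5 of those 21 cells and 11 of those 17, and a Cd8 gene in 12 and 1. Foxp3, which defines regulatory T cells, was seen as 4 UMIs in 4 members of EAE 1 and 1 UMI in EAE 2, and together with Ctla4 in 2 and 0 members. Tnfrsf4 (OX40) was at 249 and 345 CPM, Tnfrsf18 (GITR) at 187 and 329 CPM and Ikzf2 (Helios) at 234 and 94.0 CPM. In members neither fibroblast-rich nor class II-rich, Tnfrsf4 was at 593 CPM in EAE 1 and 376 CPM in EAE 2, so that its direction turned, while Tnfrsf18 was at 370 and 439 CPM and Ikzf2 at 535 and 104 CPM. Of the regulatory T cell list 4 of 6 genes were higher in members, beside 5.35% of all genes. Its member Capg, an actin-capping protein, was at 231 CPM in EAE 1 and 846 CPM in EAE 2, with 165 and 133 CPM in the other cells.

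Members with Cd4 alone could be set side by side between the libraries, 8 cells of EAE 1 and 11 of EAE 2. Ctla4 was found in 4 of the 8 and 10 of the 11, Icos in 4 and 7, Tnfrsf4 in 2 and 7 and Cd40lg, the ligand by which helper cells license other leukocytes, in 1 and 5. Klf2 was found in 5 of the 8 and 1 of the 11, and the heat shock gene Hspa1a in 3 and none. Lat was found in 5 and all 11. The cells of EAE 1 were deeper, at medians of 4236 UMIs in EAE 1 and 2343 UMIs in EAE 2.

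Klf2, a factor of quiescent and recirculating lymphocytes, differed widely between the libraries. It was detected in 45 of 56 members of EAE 1 (1286 CPM, 1156 to 1427) and 1 of 21 of EAE 2 (15.7 CPM, 0.397 to 87.3), while the other cells held 280 and 126 CPM. The myeloid-gated cells held 888 CPM of Klf2 in EAE 1 and 150 CPM in EAE 2, so this direction was not particular to members. S1pr1, the receptor by which lymphocytes leave lymph nodes, was at 36.0 and 78.3 CPM, and the lymph node homing receptor Ccr7 at 18.0 and 110 CPM, in 4 members of each library. Il7r, the receptor of the survival cytokine IL-7, was at 72.1 and 141 CPM, and Satb1, a chromatin organiser of T cells, at 64.8 and 157 CPM. Klf2 was thus higher in EAE 1, while the levels of S1pr1, Ccr7, Il7r and Satb1 were higher in EAE 2 by less than the 4-fold limit, with the exception of Ccr7. With 10 CPM added the ratio of EAE 1 to EAE 2 was 0.234 for Ccr7, over 12 UMIs in all, and 0.289 without fibroblast-rich and class II-rich members. Klf2 was then at 1469 and 20.9 CPM, S1pr1 at 58.4 and 104 CPM and Satb1 at 107 and 188 CPM. Il7r was then at 126 and 146 CPM, so little of its difference was left, and over all members of EAE 2 it rested on 9 UMIs. Of this list 2 of 4 genes, Il7r and Satb1, were higher in members than in other cells, beside 5.35% of all genes.

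**Figure D3:**
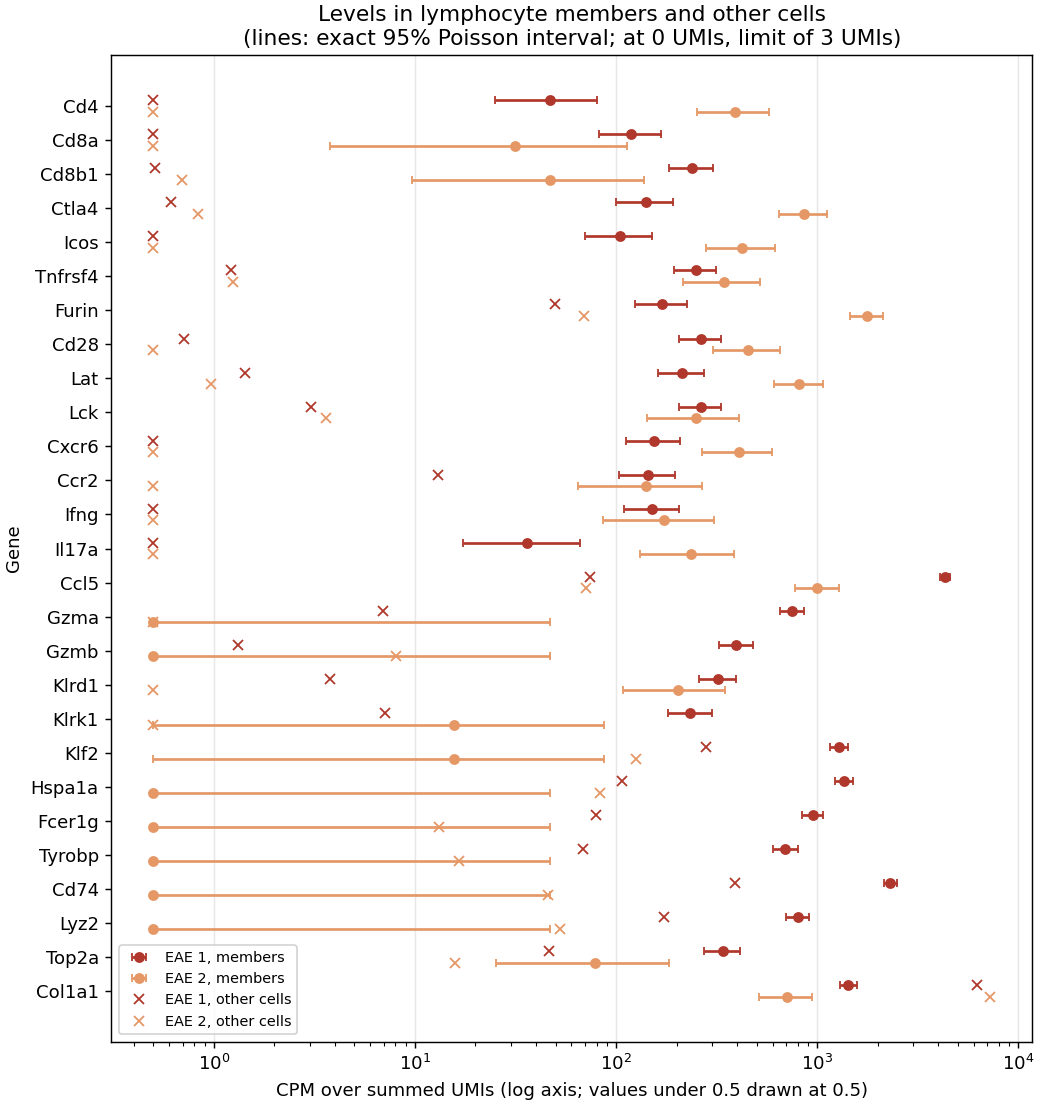
Levels of 27 genes in CPM over summed UMIs on a log axis, with members as dots with exact 95% Poisson intervals (up to the limit of 3 UMIs where the sum was 0) and other cells of the same library as crosses. Values under 0.5 CPM are drawn at 0.5. The dots of Cd4, Ctla4, Icos, Furin and Lat lie further right in EAE 2, and those of Gzma, Gzmb, Klf2, Hspa1a, Tyrobp and Cd74 further right in EAE 1.

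Genes of activation and of residence in tissue were present in both libraries and several stood higher in EAE 2. Icos, a costimulator of activated T cells, was at 104 CPM (70.0 to 150) in EAE 1 and 423 CPM (279 to 615) in EAE 2, against 0.102 and 0.278 CPM in the other cells. Icos was at 214 and 502 CPM without fibroblast-rich and class II-rich members. Cd40lg was at 28.8 and 204 CPM, and at 58.4 and 167 CPM without those members. Furin, a protease that processes TGF-beta and is induced in activated T cells, was at 169 CPM (124 to 225) and 1770 CPM (1459 to 2128), against 49.6 and 69.0 CPM in the other cells. Of this list 6 of 19 genes with at least 10 UMIs were at least 4-fold higher in EAE 2 and 1 in EAE 1, beside 1.38% and 10.5% of all genes. Rgs1, which dampens chemokine signalling and marks resident T cells, was detected in 35 of 56 and 13 of 21 members, at 504 and 1018 CPM. S100a4 was at 540 and 1065 CPM, and Cd69, which retains cells in tissue, at 277 and 486 CPM. Without fibroblast-rich and class II-rich members Rgs1 was at 759 and 1212 CPM, Cd69 at 418 and 564 CPM and S100a4 at 525 and 1379 CPM. Pdcd1 (PD-1) was detected in 15 of 56 members (112 CPM) and 2 of 21 (31.3 CPM), and stood at 233 and 0 CPM without fibroblast-rich and class II-rich members. Lgals1 and S100a6 did not mark the members, since Lgals1 was at 3055 and 3681 CPM in members and 3259 and 3687 CPM in the other cells, and S100a6 at 1769 and 1394 CPM in members (934 and 1567 CPM without fibroblast-rich and class II-rich ones) and 2121 and 1519 CPM in the other cells. Of the activation list 6 of 17 genes were higher in members, beside 5.35% of all genes.

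Of the chemokine receptors 3 of the 4 that passed the minimum were higher in members, beside 5.35% of all genes. Cxcr6, which guides T cells to CXCL16, was detected in 23 of 56 members of EAE 1 (155 CPM, 112 to 209) and 9 of 21 of EAE 2 (407 CPM, 266 to 597), and the other cells held 0.407 and 0.139 CPM. Its ligand Cxcl16 was detected in 61.8% and 57.9% of the other cells, at 280 and 217 CPM. Ccr2 was detected in 23 and 6 members at 144 and 141 CPM, and its ligand Ccl2 was found in 33.4% and 46.4% of the other cells at 374 and 429 CPM. The myeloid-gated cells held Ccr2 at 328 CPM in EAE 1 and 10.0 CPM in EAE 2, so it was not particular to members in EAE 1. Cxcr3, the receptor of the interferon-induced ligands Cxcl9 and Cxcl10, was detected in 13 of 56 members (61.2 CPM) and 1 of 21 (15.7 CPM), and stood at 136 and 20.9 CPM without fibroblast-rich and class II-rich members. Cxcl10 stood at 375 and 212 CPM in the other cells and Cxcl9 at 352 and 158 CPM.

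Cxcr4 was detected in 12 members of EAE 1 (68.5 CPM) and 2 of EAE 2 (47.0 CPM), and its ligand Cxcl12 in 69.2% and 68.6% of the other cells at 615 and 519 CPM. Ccr7, above, has the ligand Ccl19, which was detected in 35.7% and 22.9% of the other cells at 257 and 124 CPM. Il7 and Il15, the ligands of Il7r and of the Il2rb chain, were low in the other cells. Il7 was at 2.45 and 1.94 CPM, from 24 UMIs in 23 cells and 14 UMIs in 14 cells. Il15 was at 6.01 and 2.92 CPM, from 59 UMIs in 57 cells and 21 UMIs in 21 cells. Whether ligand and receptor cells met in the cord was not measured.

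**Figure D4:**
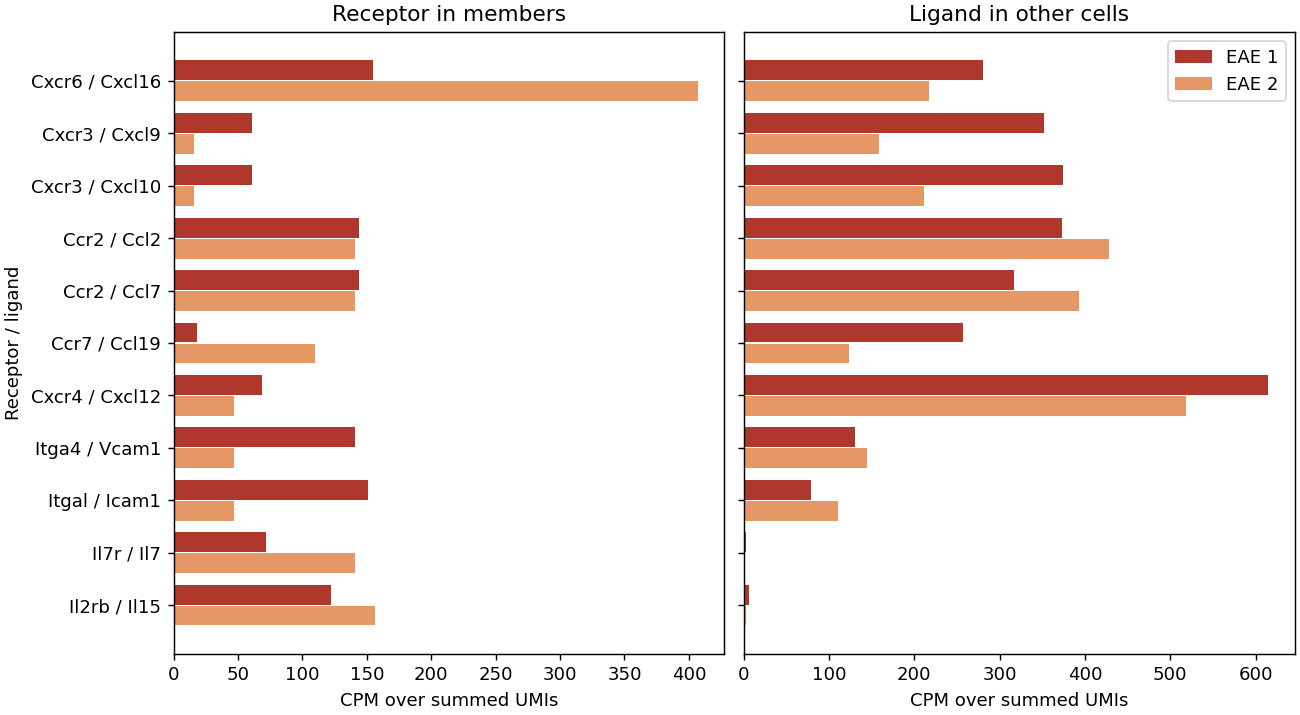
Levels of lymphocyte receptors in members (left) and of their ligands in the other cells (right), in CPM over summed UMIs, for EAE 1 (upper bar of each pair) and EAE 2 (lower bar). Cxcr6 has the longest bar on the left at 407 CPM in EAE 2, and on the right Cxcl12 stands at 615 and 519 CPM while Il7 and Il15 stay near 0.

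Of adhesion genes 4 of 8 were higher in members, beside 5.35% of all genes. Selplg, the selectin ligand PSGL-1 that starts rolling on vessels, was detected in 36 of 56 members (299 CPM) and 11 of 21 (266 CPM), against 9.68 and 7.50 CPM in the other cells. Itgb7 was at 64.8 and 282 CPM and Itgb2, the common chain of leukocyte integrins, at 144 and 94.0 CPM. In myeloid-gated cells Itgb7 was at 100 and 60.2 CPM and Itgb2 at 71.4 and 20.1 CPM. Itga4, the alpha chain of the integrin VLA-4 by which T cells enter the inflamed cord, was detected in 21 of 56 members (141 CPM, 99.9 to 192) and 3 of 21 (47.0 CPM, 9.69 to 137), and its ligand Vcam1 in 40.1% and 45.0% of the other cells. Itgal was at 151 and 47.0 CPM, with its ligand Icam1 at 78.6 and 111 CPM in the other cells. Itgb1 did not mark the members, at 267 and 110 CPM against 265 and 274 CPM in the other cells.

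Of the cytokine receptors 6 of 10 were higher in members, beside 5.35% of all genes. Il2rg, the chain common to the receptors of IL-2, IL-7, IL-15 and IL-21, was at 151 CPM in EAE 1 and 423 CPM in EAE 2, against 3.36 and 6.39 CPM in the other cells, and Il21r was at 79.3 and 204 CPM. Ifngr1 was at 270 and 392 CPM in members and at 87.8 and 82.8 CPM in the other cells. Tgfbr2 was not a mark of members, at 79.3 and 141 CPM against 115 and 119 CPM, while its ligand Tgfb1 was at 144 and 282 CPM in members and 44.0 and 44.8 CPM in the other cells.

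Of interferon-induced genes 2 of 8 were higher in members in both libraries, beside 5.35% of all genes, and 5 of 14 were at least 4-fold higher in EAE 1 than in EAE 2, beside 10.5% of all genes. Ifi27l2a was at 1056 and 564 CPM in members and 199 and 45.7 CPM in the other cells. In myeloid-gated cells it was at 1406 and 80.2 CPM, so it was not particular to members in EAE 1. Ly6c2, a surface antigen of CD8 memory cells and of monocytes, was detected in 25 of 56 members (468 CPM) and 1 of 21 (62.6 CPM). Bst2 was at 252 and 78.3 CPM in members and at 314 and 108 CPM in the other cells, so it was higher in EAE 1 in the other cells too, and without fibroblast-rich and class II-rich members it was at 77.8 and 83.6 CPM.

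Dividing cells were taken as those with at least 2 UMIs of Mki67, Top2a, Birc5, Ube2c, Cdk1 and Ccnb2 together. They were 16 of 56 members of EAE 1 (28.6%, 17.3 to 42.2%) and 1 of 21 of EAE 2 (4.76%, 0.120 to 23.8%), against 162 of 1857 (8.72%) and 74 of 1217 (6.08%) of the other cells. After thinning, 30.7% of members and 7.78% of other cells of EAE 1 had any UMI of these genes, and 8.39% and 5.28% in EAE 2, where 74 shallower other cells were left out. All 16 in EAE 1 had Cd3, which is part of the rule, 9 had a Cd8 gene and 1 had Cd4. The members with the most UMIs of these 6 genes, 43 and 42, held 24788 and 19098 UMIs in all. They held only 2 and 4 UMIs of the rule's genes, 1 and 3 of them Cd3. Top2a was detected in 18 members of EAE 1 (339 CPM) and 3 of EAE 2 (78.3 CPM), and Mki67 in 11 (122 CPM) and 1 (15.7 CPM). Over 10000 UMIs were found in 5 members of EAE 1, 4 of them dividing by this measure. Among members neither fibroblast-rich nor class II-rich, 11 of 31 and 1 of 18 were dividing. Top2a was then at 447 and 104 CPM and Mki67 at 185 and 20.9 CPM. Of the cell cycle list 1 of 8 genes, Hmgb2, was higher in members of both libraries, beside 5.35% of all genes. Of this list 7 of 14 were at least 4-fold higher in EAE 1 than in EAE 2, beside 10.5% of all genes. Among the 7, Cdk1 and Ccnb2 were at 0 UMIs in EAE 2, and by the limit of 3 UMIs were each at least 1.53-fold higher in EAE 1.

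Outside all lists, the 20 genes with the highest fold of members over other cells, taken as the lower of both libraries, had folds of 10.7 to 37.0 with 10 CPM added. The highest was Ms4a4b, a membrane protein of T cells, at 767 CPM (43 of 56 members) in EAE 1 and 360 CPM (12 of 21) in EAE 2, against 4.08 and 0 CPM in the other cells. Gimap1, Gimap3, Gimap4, Gimap5, Gimap6 and Gimap7, of a family of GTPases that supports lymphocyte survival, were all among the 20. Gimap4 was detected in 37 and 10 members, at 349 and 298 CPM, and Gimap6 in 35 and 12, at 288 and 470 CPM. How reads shared by members of such a family were assigned is not given in the sources used here. Rac2, the blood cell form of a GTPase of cell movement, was detected in 49 of 56 and 20 of 21 members, at 580 and 1112 CPM. Hcst, the adaptor DAP10 of the receptor NKG2D, was at 342 and 924 CPM and Sh2d2a, an adaptor of T cells, at 191 and 141 CPM. The phosphatase Ptpn22, which limits receptor signalling, was at 130 and 266 CPM, and Gpr183, the receptor of oxysterols that positions lymphocytes, at 137 and 157 CPM. The rest of the 20 were AW112010, Ctla2a, Gmfg, Ptpn18, Rhoh, Sept1, Samsn1 and Fyb.

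Between the 2 sets of members, the genes furthest toward EAE 1 were Cd74, H2-Ab1, Hspa1a, Dct, Fcer1g, H2-Aa, Ccl4, Lyz2, Gzma and H2-Eb1, all at 0 UMIs in EAE 2. Cd74, the invariant chain of class II molecules, was at 2313 CPM in EAE 1, at least 49.2-fold higher than in EAE 2, and H2-Ab1 at 1383 CPM, at least 29.4-fold higher. In the other cells Cd74 stood at 389 and 46.1 CPM and H2-Ab1 at 199 and 7.08 CPM, so both were higher in EAE 1 there too. Without fibroblast-rich and class II-rich members, Cd74 was at 58.4 CPM and H2-Ab1 at 29.2 CPM in EAE 1, a difference that the choice of those members sets. Hspa1a, a heat shock protein induced by stress, was detected in 38 of 56 members of EAE 1 (1358 CPM) and 0 of 21 of EAE 2, at least 28.9-fold higher. All other cells together held 107 and 83.5 CPM. The myeloid-gated cells held 1567 CPM in EAE 1 and 50.1 CPM in EAE 2, so the difference was not particular to members. Hspa1a was in 19 of 31 members of EAE 1 without fibroblast-rich and class II-rich cells. Hbb-bs, of red cell haemoglobin, was detected in 40 of 56 members of EAE 1 (515 CPM) and 0 of 21 of EAE 2, and the other cells of those libraries held 564 and 0.555 CPM. Dct, an enzyme of melanin synthesis, came from 3 members of EAE 1 with 310 UMIs.

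Among the genes furthest toward EAE 2 were Vps8, Rgcc, Chpt1, Furin, Adam19, Podnl1, Cd4, Amd1 and D16Ertd472e. Rgcc, a regulator of the cell cycle, was detected in 10 of 56 members of EAE 1 (50.4 CPM, 27.6 to 84.6) and 11 of 21 of EAE 2 (877 CPM, 663 to 1139), against 88.8 and 105 CPM in the other cells. Adam19, a membrane metalloprotease, was at 18.0 and 235 CPM, against 14.6 and 21.4 CPM in the other cells. Vps8 differed between the libraries in all cells. It was at 36.0 CPM in EAE 1 and 1034 CPM in EAE 2 in members and at 72.8 and 4111 CPM in the other cells. Of the genes at least 4-fold higher in members of EAE 1 or of EAE 2, 377 and 41 also differed at least 4-fold more in members than in the other cells. EAE 1 and EAE 2 belong to sets whose labels differ in carrying a sequencing lane, and library, set and mouse cannot be told apart.

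RNA of other cell types was present in some members. The 10 fibroblast markers summed to 0 UMIs in 28 of 56 members of EAE 1 and 8 of 21 of EAE 2, against 3.39% and 0.164% of the other cells, and their median was 0.5 and 1 UMI in members and 151 and 159 UMIs in the other cells. In 7 and 3 members they outnumbered the UMIs of the 5 lymphocyte genes, and these are called fibroblast-rich. The name rests on this ratio and not on a high count in each cell. The member of EAE 1 with 24788 UMIs had 11 fibroblast UMIs beside 2 of the rule's genes. A member of EAE 2 with 1622 UMIs had 9 beside 3. Dcn was detected in 11 and 4 members at 994 and 1504 CPM, against 8611 and 8354 CPM in the other cells. All 7 fibroblast-rich members of EAE 1 had a barcode that was also in the Healthy 1 table, and of the other 49 members 3 had a barcode in the table of Healthy 1 or Healthy 2.

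Members with at least 10 UMIs of H2-Aa, H2-Ab1, H2-Eb1 and Cd74, here called class II-rich, were 19 of 56 in EAE 1 and 0 of 21 in EAE 2. Of these 19, 16 had a Cd3 UMI and 14 also had Lyz2 or Cd209a, genes of monocytes and dendritic cells. Among the other cells 3.98% of EAE 1 and 0.575% of EAE 2 passed the same limit, which was set after the values were seen. The 12 myeloid markers held 0 to 118 UMIs per member in EAE 1, with a median of 4, and 0 in every member of EAE 2, while the other cells held 0 to 191 in EAE 1 and 0 to 464 in EAE 2. Lyz2 was at 800 and 0 CPM in members. Without the fibroblast-rich and class II-rich members the level of Cd3d was 1099 CPM in EAE 1 and 1108 CPM in EAE 2, against 569 and 971 CPM over all members, and that of Ccl5 was 8112 and 1338 CPM. For Cd3d and Ccl5 the levels in EAE 1 given over all members are thus lower than in the members that are left. Other genes named above went the other way in EAE 1. Ccr2 moved from 144 to 126 CPM, Tgfbr2 from 79.3 to 58.4 CPM, S100a4 from 540 to 525 CPM and Fcer1g from 948 to 516 CPM. Doublets were neither called nor removed.

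**Figure D5:**
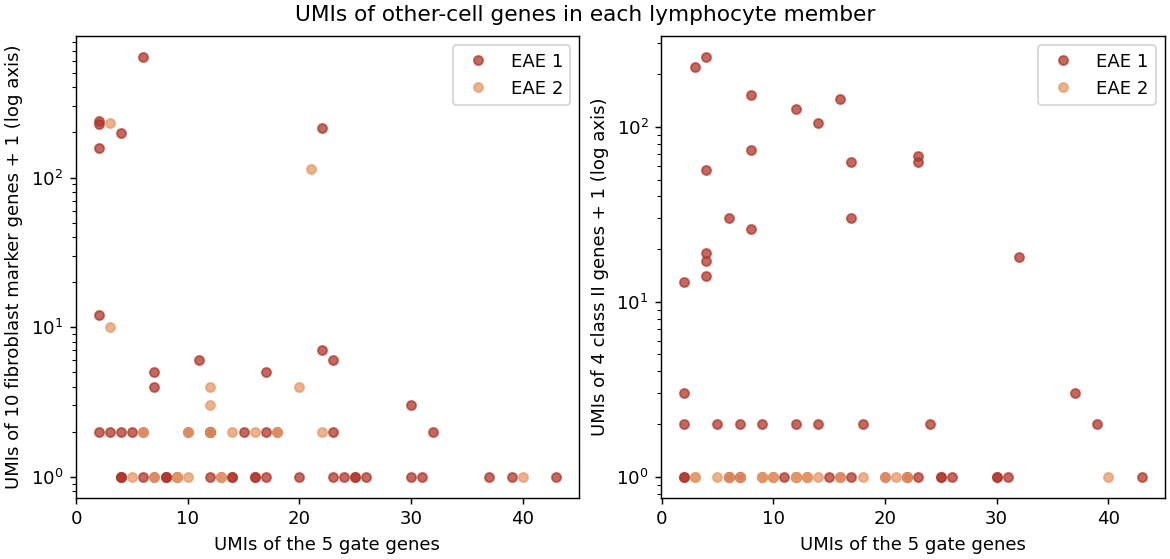
Each dot is a member, with the UMIs of the 5 lymphocyte genes on the horizontal axis and, on log axes, UMIs + 1 of 10 fibroblast markers (left) and of 4 class II genes (right). Most dots lie at 0 or a few fibroblast UMIs, with 6 members of EAE 1 and 2 of EAE 2 at 100 or more, and every dot of EAE 2 lies at 0 class II UMIs.

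Some markers of further cell types were also counted. Mast cell and basophil markers held 0 UMIs, and neutrophil markers held 1 UMI in 1 member of EAE 1. The B and plasma cell markers present in both tables held 7 UMIs in 5 members of EAE 1 and 2 UMIs in 2 members of EAE 2. Ighm, counted in EAE 1 alone, was detected in 14 members (72.1 CPM), and Igkc was at 101 CPM in members against 4354 CPM in the other cells of EAE 1. Red cell and platelet markers held 232 UMIs in members of EAE 1 and 0 in those of EAE 2.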

How the data were processed

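Cells of 5 droplet libraries (2 EAE, 3 Healthy) were analysed from 5 gene-by-barcode tables. Each table held counts of UMIs that the authors deposited without normalization. Cell Ranger 2.1.1, Seurat 3 and mm10 are named, per the submitters' processing notes. For cell calling, strand and the assignment of shared reads, settings were not given in the sources used here. No table was left out.

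Tables were read with Python 3.11.15, numpy 2.4.6, pandas 2.3.3 and scipy 1.17.1, and figures were drawn with matplotlib 3.10.9. Cells were kept and members chosen as given at the start of the text. Doublets were neither called nor removed. UMIs of the members and of the other cells were summed within each library over the 27998 genes present in both EAE tables, and divided by their total. Receptor and immunoglobulin constant genes were read in EAE 1 alone. Intervals are exact (Poisson for sums, Clopper-Pearson for shares, 95%) and, like the limit of 3 counts for a 0, cover counting error only, since cells of a library are not replicates. Thinned shares are expectations at 1300 UMIs per cell. Folds had 10 CPM added, and a gene was called at 4-fold. No test was made, because the rule of membership set the contrast of members with other cells and because each side of EAE 1 against EAE 2 held 1 library. The steps were tested on simulated data. No depth beyond the UMI totals was used.

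The members and gene lists were chosen with earlier results of these data known. The rule for names took the gate genes, up to 5 genes of each list by level, lineage and program genes fixed by name, the 20 genes outside all lists with the highest fold, 10 genes to each side between EAE 1 and EAE 2, and the 5 genes most frequent with and without Cd3. Listed genes named beyond it, among them Cd28, Lck, Lat, Icos, Cd40lg, Cd69, Pdcd1, Cxcr3, Itga4, Itgal and Klra8, were chosen after their values were seen. Some genes that the rule takes are not reported here. Alternatives changed the gate, the fold, the pseudocount, the minimum and the members used, and left out each library in turn.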

Additional observations from a re-analysis of the deposited data

How the results depend on the processing

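The share of lymphocytes in EAE 1 was 4.76% when any UMI of the 5 genes sufficed, 1.93% without class II-rich members and 1.62% without fibroblast-rich and class II-rich members, against 2.93% as reported; the last 2 settings were added after the data were seen. The mean share in EAE minus Healthy was 2.31 points, and 3.50 points when any UMI sufficed. Leaving out each library in turn gave 1.70 to 2.93 points. The number of genes higher in members of both libraries was 179 at 4-fold, 428 at 2-fold, 81 at 8-fold and 286 with 1 CPM added, and 312 to 352 when a single EAE library was used. Without fibroblast-rich and class II-rich members it was 239, of which 170 were among the 179. Without those members the ratio of EAE 1 to EAE 2 for Il17a moved to 4.89, against 0.188 over all members. No paired analysis was possible because the labels number a single EAE library, so the groups share fewer than 2 replicate numbers, and the results come from no test; the differences within sets of libraries (2.93 and 1.70 points) compare sets, not pairs.

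Depth limits these values. In EAE 2 the 21 members held 63848 UMIs, so a gene at 0 could stand at up to 47.0 CPM, against 10.8 CPM in EAE 1. Coreceptors, cytokines and transcription factors were often seen as single UMIs, and a member without one may still express it. The Cd3-free group held 6 cells of 1 library. All contrasts of EAE 1 with EAE 2 rest on 1 library a side.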
